A study of Rhododendron with 15 samples.

Results

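Transcripts of 3 chlorophyll a-b binding antenna genes, of 29985 genes listed, were followed in heated leaves of Rhododendron 'xiaotaohong', a shrub grown for its flowers, with or without melatonin, an indole that plants make from tryptophan. The genes were MSTRG.6506, MSTRG.21116 and MSTRG.24636, taken by their identifiers in the authors' table, and all 3 passed the count filter, as did 26183 genes in all. Leaf polyA RNA was sequenced in 15 libraries. Of the 5 groups, each with 3 libraries, a pair received melatonin under heat (at 35 °C or at 40 °C) and the other 3 received none (at 25 °C, at 35 °C or at 40 °C). The series title names heat tolerance as its topic. Neither the amount of melatonin, nor how long heating lasted, nor the hour of harvest is stated in the labels. They do not say that libraries within a group are separate plants. Each p-value therefore sets a group difference only against the spread between these libraries, which may be technical.

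Antenna proteins sit in the thylakoid membrane of the chloroplast, hold chlorophyll a and b, and pass absorbed light energy to the reaction centres. LHCA proteins form the antenna of photosystem I, where LHCA1 pairs with LHCA4 and LHCA2 with LHCA3. LHCB proteins serve photosystem II: LHCB1, LHCB2 and LHCB3 build the trimers of the major antenna, and LHCB4 (CP29), LHCB5 (CP26) and LHCB6 (CP24) link these to the core. All are encoded in the nucleus and imported into the chloroplast, and their transcripts are known to depend on light, the hour of day and stress.

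MSTRG.6506 (chromosome 4, 3362537 to 3364019, minus strand) is described as chlorophyll a-b binding protein 8 and carries the KEGG orthology number K08909, that of LHCA3. MSTRG.21116 (chromosome 12, 23888890 to 23890235, plus strand) is described as protein P4 with K08910, that of LHCA4. MSTRG.24636 (plus strand, 649399 to 651319 of the unplaced contig ctg618) is described as protein 13 with K08914, that of LHCB3. No label or file header names the genome build. These descriptions and the orthology numbers name the same family members, and the text below uses the names LHCA3, LHCA4 and LHCB3.

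The 3 genes were selected on their FPKM and fold changes in these data. LHCA3 and LHCB3 were chosen by the comparisons of 40 °C with 25 °C and with 35 °C, and the comparison behind the choice of LHCA4 is not recorded. Their changes among the 3 groups without melatonin and for melatonin at 40 °C, and all values of LHCA4, are therefore given as descriptions without a p-value. LHCA3 and LHCB3 were tested in 2 comparisons that did not choose them. That of 40 °C with 35 °C, both with melatonin, compares none of the libraries that chose them. Yet earlier results of these data were known at the choice, so this comparison is not shown to be independent of it. That of melatonin at 35 °C shares the 35 °C libraries without melatonin with the choice. In both, the spread behind the SE and p-value was estimated from all 15 libraries, including those that chose the genes.

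Library totals were 54300447 to 68267949 counts, and log2 CPM (counts scaled to library depth) of libraries of 1 group correlated at 0.959 to 0.966 across genes. Levels are in FPKM, the authors' unit scaled by transcript length and library depth. Fold changes are log2 values with their standard error (SE) from edgeR's quasi-likelihood test on the counts of all genes, adjusted by the Benjamini-Hochberg method, and a gene was called where adjusted p was under 0.05. They come from scaled counts, so they need not equal the ratio of the FPKM means printed beside them. In these bulk leaf samples, fewer cells of a type and less RNA per cell cannot be told apart. Antenna genes form a family of related sequences, so the split of reads between close copies is uncertain.

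LHCA3, in the photosystem I antenna, was among the most abundant antenna transcripts. With melatonin it had 3001, 2950 and 2986 FPKM at 35 °C and 2269, 2255 and 2271 FPKM at 40 °C. Without melatonin it had 3054, 2998 and 3049 FPKM in the 25 °C libraries, 3809, 3950 and 3878 FPKM at 35 °C, and 369, 353 and 362 FPKM at 40 °C. The 35 °C libraries without melatonin stood highest and the 40 °C libraries without melatonin lowest, and the only neighbouring groups that overlapped were 25 °C and 35 °C with melatonin. As a share of the mean at 25 °C, LHCA3 with melatonin stood at 98.2% at 35 °C and 74.7% at 40 °C, and without melatonin at 128% at 35 °C and 11.9% at 40 °C.

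LHCA4, which joins LHCA1 in the photosystem I antenna, was with melatonin at 2113, 2137 and 2127 FPKM at 35 °C and 1961, 1915 and 1988 FPKM at 40 °C. Without melatonin it was at 1822, 1882 and 1821 FPKM at 25 °C, 2283, 2386 and 2435 FPKM at 35 °C, and 366, 342 and 349 FPKM at 40 °C. No libraries of different groups overlapped. The order from the top was 35 °C, 35 °C with melatonin, 40 °C with melatonin, 25 °C and 40 °C, so the 40 °C leaves with melatonin held 106% of the mean at 25 °C, while those without held 19.1%.

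LHCB3, a subunit of the major photosystem II antenna, had with melatonin 125, 120 and 120 FPKM at 35 °C and 109, 112 and 112 FPKM at 40 °C. Without melatonin it had 702, 661 and 694 FPKM at 25 °C, 110, 106 and 107 FPKM at 35 °C, and 2.90, 3.18 and 3.65 FPKM at 40 °C. The 40 °C values without melatonin rest on 179, 216 and 248 counts, against 39110 to 40886 counts at 25 °C. The 40 °C libraries with melatonin overlapped those at 35 °C without it, and no other neighbours in the order of levels overlapped. LHCB3 with melatonin thus stood at 17.7% of the 25 °C mean at 35 °C and 16.2% at 40 °C, and without melatonin at 15.7% at 35 °C and 0.473% at 40 °C.

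**Figure D1:**
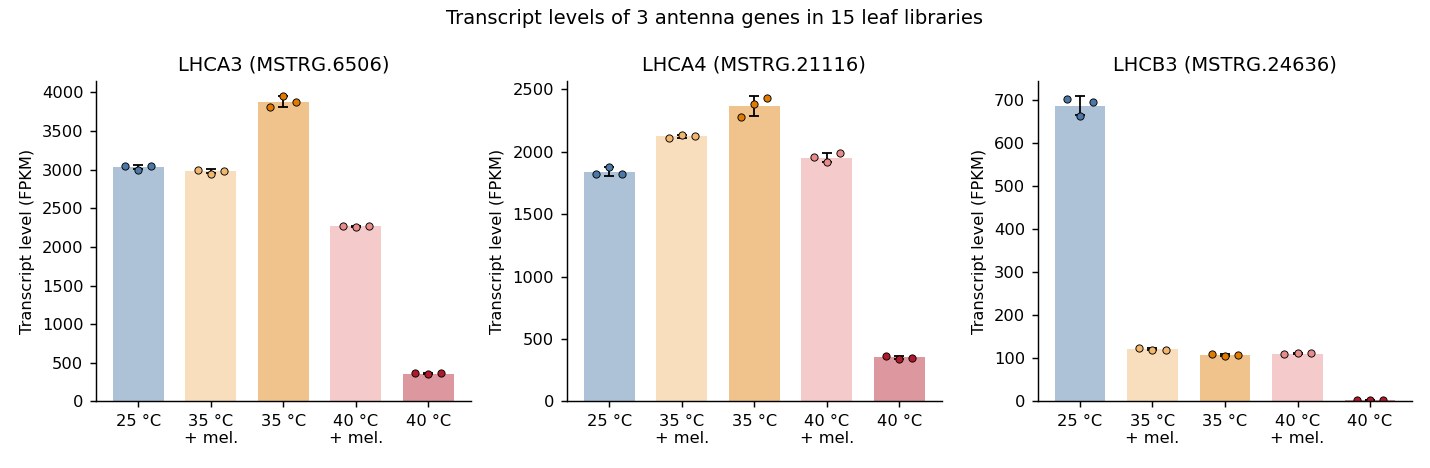
Transcript level in FPKM (vertical axis, from 0) of LHCA3, LHCA4 and LHCB3 in each of 15 libraries; points are libraries, bars the mean of 3, whiskers 1 SD, and "+ mel." marks melatonin. LHCA3 and LHCA4 are low only in the 40 °C group without melatonin (353 to 369 and 342 to 366 FPKM), whereas LHCB3 is high only at 25 °C (661 to 702 FPKM) and lies between 106 and 125 FPKM in the 35 °C groups and at 40 °C with melatonin.

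At 35 °C against 25 °C, without melatonin, LHCA3 and LHCA4 were slightly higher and LHCB3 was far lower. LHCA3 averaged 3879 ± 70.6 FPKM at 35 °C and 3034 ± 30.7 FPKM at 25 °C (SD, n = 3 each), a log2 fold change of 0.29 ± 0.02. LHCB3 averaged 108 ± 2.29 FPKM at 35 °C and 686 ± 21.96 FPKM at 25 °C, a log2 fold change of -2.73 ± 0.06. LHCA4 had a log2 fold change of 0.30 ± 0.03. The 8 other antenna genes of the table, all of which passed the count filter, did not move as one: 2 rose and 3 fell, where 25.5% of all genes tested rose and 23.6% fell.

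The pair that rose at 35 °C were CP29 (MSTRG.9800), with 1552 ± 156 FPKM at 35 °C and 871 ± 42.1 FPKM at 25 °C, and an LHCA2 gene (MSTRG.20722), with 345 ± 14.8 FPKM at 35 °C and 307 ± 11.4 FPKM at 25 °C. The second call rests on a log2 fold change of 0.11 ± 0.04 and is lost without the second library of 25 °C or the first of 35 °C, where the count of risen genes is 1. MSTRG.9800 is a locus merged from 2 gene names, so its counts sum over both. Those that fell were LHCB2 (MSTRG.6604), the most abundant antenna transcript at 25 °C, with 3582 ± 225 FPKM at 35 °C and 5889 ± 391 FPKM at 25 °C, LHCA1 (MSTRG.16494; log2 fold change -0.23 ± 0.06) and LHCA5 (MSTRG.10375; -1.39 ± 0.14), a minor photosystem I antenna protein. LHCB3 had the lowest fold change of the 11 antenna genes.

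At 40 °C against 25 °C, the log2 fold change was -2.98 ± 0.02 for LHCA3, -2.30 ± 0.03 for LHCA4 and -7.63 ± 0.07 for LHCB3. All 8 other antenna genes fell, where 38.6% of all genes tested fell. Their log2 fold changes ran between -3.39 and -1.51, with a median of -2.04 against -0.01 over all genes, so LHCA3 and LHCA4 lay inside that range and LHCB3 far outside it. LHCB2 averaged 528 ± 19.1 FPKM at 40 °C and 5889 ± 391 FPKM at 25 °C. CP24 (MSTRG.19542) averaged 260 ± 39.3 FPKM at 40 °C and 1154 ± 29.9 FPKM at 25 °C, and CP29 203 ± 15.3 FPKM at 40 °C and 871 ± 42.1 FPKM at 25 °C.

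The 11 antenna genes together took, with melatonin, 1.87 to 1.88% of a library's counts at 35 °C and 1.54 to 1.56% at 40 °C. Without melatonin they took 1.98 to 2.11% at 25 °C, 2.03 to 2.19% at 35 °C and 0.325 to 0.328% at 40 °C. A CP26 gene (Rhsim05G0000500) stayed under 1 FPKM in every library. A further locus (Rhsim13G0192700) has the orthology number of LHCB1 but no antenna description, and it held 6 counts over all 15 libraries.

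From 35 °C to 40 °C without melatonin, the log2 fold change was -3.27 ± 0.02 for LHCA3, -2.60 ± 0.03 for LHCA4 and -4.90 ± 0.07 for LHCB3. All 8 other antenna genes were lower at 40 °C than at 35 °C too, between -2.89 and -1.58, where 36.5% of all genes tested were lower and 32.8% higher. For LHCB3 the step from 35 °C to 40 °C came on top of a lower level already seen at 35 °C, whereas LHCA3 and LHCA4 stood above their 25 °C levels at 35 °C.

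The same step with melatonin gives the fold change in libraries outside the comparisons that chose LHCA3 and LHCB3. Earlier results of these data were known at that choice, so tests of this step are not shown to be independent of it. LHCA3 fell by 0.33 ± 0.02 on the log2 scale, to 2265 ± 8.44 FPKM at 40 °C against 2979 ± 26.0 FPKM at 35 °C, both with melatonin, with an adjusted p of 1.2e-08 in edgeR. LHCB3 had 111 ± 1.75 FPKM at 40 °C and 122 ± 2.74 FPKM at 35 °C, a log2 fold change of -0.07 ± 0.05 that did not pass (adjusted p = 0.30 in edgeR). Without the third library of 40 °C given no melatonin, which lies outside this comparison, it was -0.103 and was called. For LHCA4 it was -0.06 ± 0.03. Among the 8 other antenna genes 3 were lower and 2 higher at 40 °C with melatonin, where 27.5% of all genes tested were lower and 27.3% higher. The lower ones were LHCB2 (-0.37 ± 0.05), CP29 (-0.67 ± 0.08) and LHCA5 (-0.70 ± 0.14), and the higher ones LHCA1 (0.26 ± 0.06) and a second LHCA2 gene (MSTRG.8224; 0.54 ± 0.05).

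Melatonin at 40 °C was set against 40 °C without it. The log2 fold change was 2.46 ± 0.02 for LHCA3, 2.28 ± 0.03 for LHCA4 and 4.90 ± 0.07 for LHCB3. All 8 other antenna genes were higher with melatonin, where 32.9% of all genes tested were higher, with log2 fold changes between 0.76 and 3.15 and a median of 1.73 against 0.10 over all genes. LHCA1 moved the most of these, with 1542 ± 22.1 FPKM with melatonin and 152 ± 10.9 FPKM without. LHCB2 had 2483 ± 16.0 FPKM with melatonin and 528 ± 19.1 FPKM without, and CP24 1107 ± 15.5 FPKM with melatonin and 260 ± 39.3 FPKM without. LHCA5 moved least, with 12.8 ± 0.237 FPKM with melatonin and 6.58 ± 1.78 FPKM without. Libraries at 40 °C without melatonin enter both this comparison and those of heat, so the fold changes share them. Of all genes called, 55.6% were higher with melatonin in edgeR and 66.7% in limma on FPKM.

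At 35 °C, melatonin went with a small fall of LHCA3 and no call for LHCB3. LHCA3 averaged 2979 ± 26.0 FPKM with melatonin and 3879 ± 70.6 FPKM without, a log2 fold change of -0.49 ± 0.02 with an adjusted p of 2.9e-09 in edgeR. The 35 °C libraries without melatonin also served to choose LHCA3 and LHCB3, so tests in this comparison are not independent of that choice. LHCB3 averaged 122 ± 2.74 FPKM with melatonin and 108 ± 2.29 FPKM without, a log2 fold change of 0.07 ± 0.05 (adjusted p = 0.43 in edgeR). The libraries of LHCB3 did not overlap in FPKM, yet the difference did not pass the threshold in the fit on the counts. For LHCA4 the log2 fold change was -0.26 ± 0.03. In limma on log2(FPKM + 1) the changes were -0.38 for LHCA3, -0.16 for LHCA4 and 0.17 for LHCB3.

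Of the 8 other antenna genes at 35 °C, 5 fell with melatonin and 0 rose, where 12.3% of all genes tested fell and 9.7% rose. They were both LHCA2 genes (-0.27 ± 0.04 for MSTRG.20722 and -0.50 ± 0.05 for MSTRG.8224), LHCA5 (-0.49 ± 0.13), LHCB2 (-0.20 ± 0.05) and CP29 (-0.27 ± 0.08). This count depends on single libraries: 3 genes passed without the first library of 35 °C, or without the first or the second of 35 °C with melatonin. On FPKM as deposited, limma called 3 lower, and there 68.4% of all called genes were higher with melatonin, against 44.1% in edgeR.

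**Figure D2:**
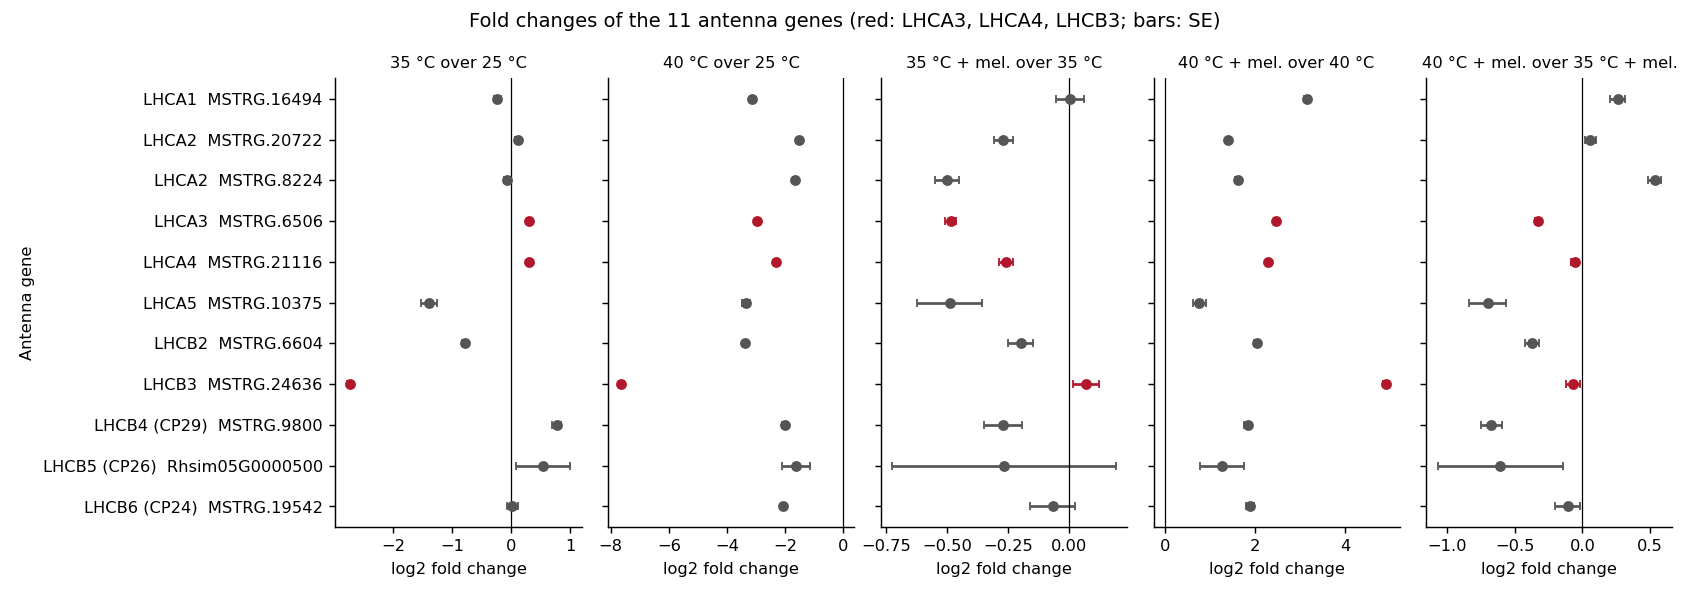
Log2 fold change (horizontal axis, a scale of its own in each panel) of the 11 antenna genes in 5 comparisons; points are edgeR estimates, whiskers their SE, LHCA3, LHCA4 and LHCB3 in red and the 8 other genes in grey. LHCB3 lies farthest left at 35 °C (-2.73) and 40 °C (-7.63) over 25 °C and farthest right for melatonin at 40 °C (4.90).

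The difference between the melatonin effects, 40 °C minus 35 °C, was 2.94 ± 0.03 on the log2 scale for LHCA3, 2.54 ± 0.04 for LHCA4 and 4.83 ± 0.08 for LHCB3. Among the 8 other antenna genes, 7 had a difference above 0 that was called in edgeR, where 27.2% of all genes tested did and 21.3% had one called below 0. The exception was CP26, at 1.55 ± 0.67.

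Ratios within a library do not depend on how libraries are scaled. With melatonin, LHCA4 stood at 0.704 to 0.724 of the LHCA3 level (FPKM) at 35 °C and 0.849 to 0.875 at 40 °C. Without melatonin the ratio was 0.597 to 0.628 at 25 °C, 0.599 to 0.628 at 35 °C and 0.965 to 0.990 at 40 °C. The 25 °C and 35 °C groups without melatonin overlapped and no others did. With melatonin the ratio was thus higher than without at 35 °C and lower than without at 40 °C.

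LHCB3 relative to LHCB2, its partner in the major antenna, showed another order. With melatonin the ratio was 0.0352 to 0.0384 at 35 °C and 0.0442 to 0.0449 at 40 °C. Without melatonin it was 0.113 to 0.121 at 25 °C, 0.0287 to 0.0311 at 35 °C and 0.00528 to 0.00703 at 40 °C. No groups overlapped. At 40 °C with melatonin LHCB3 therefore stood below its 25 °C proportion to LHCB2 while above that at 35 °C.

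**Figure D3:**
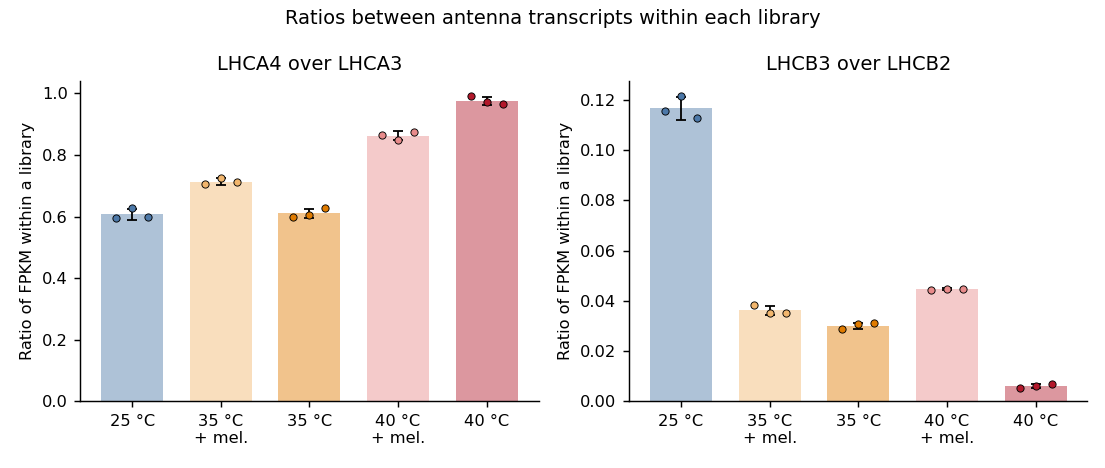
Ratio of FPKM within each library (vertical axis, from 0) of LHCA4 over LHCA3 and of LHCB3 over LHCB2; points are libraries, bars the mean of 3, whiskers 1 SD, and "+ mel." marks melatonin. LHCA4 approaches LHCA3 at 40 °C (0.965 to 0.990), and LHCB3 over LHCB2 is highest at 25 °C (0.113 to 0.121).

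Across the 15 libraries, log2(FPKM + 1) of LHCA3 and LHCA4 correlated at 0.989 (Pearson), LHCA3 and LHCB3 at 0.892, and LHCA4 and LHCB3 at 0.864. The libraries fall into 5 groups, so these values describe mainly the group means. By the same measure over genes with a mean of at least 5 FPKM and an informative description, the gene most like LHCA3 was MSTRG.6882, described as transcription activator GLK1 (r = 0.997). It was followed by an LL-diaminopimelate aminotransferase (MSTRG.12530), a fatty acid hydroperoxide lyase (MSTRG.6746), a serine hydroxymethyltransferase (MSTRG.14246) and photosystem I subunit psaK (MSTRG.22413), at 0.996 to 0.997.

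The genes most like LHCA4 were a bromodomain protein gene (MSTRG.5877), the LHCA2 gene MSTRG.20722, a merged cyclohydrolase and spastin locus (MSTRG.2149), galactinol synthase 1 (MSTRG.20857) and MSTRG.6882, at 0.992 to 0.996. LHCB3 was most like a chaperone gene (MSTRG.10948), a homeobox-leucine zipper gene (MSTRG.14712), an alcohol dehydrogenase-like gene (MSTRG.5874), transcription factor TGA1 (MSTRG.13652) and carotenoid cleavage dioxygenase 4 (MSTRG.12806), at 0.993 to 0.996. A correlation ignores the size of a change: MSTRG.14712 averaged 104.6 FPKM at 40 °C and 283 FPKM at 25 °C, a far smaller range than that of LHCB3. With log2 CPM in place of FPKM, MSTRG.6882 was second for both LHCA3 and LHCA4, while MSTRG.14712 dropped to rank 100 for LHCB3.

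Genes that act with the antenna were taken from lists of words in the descriptions. Photosystem cores, oxygen evolution and electron carriers mostly fell at 40 °C: of 26 nuclear genes, 24 fell and 2 rose at 40 °C against 25 °C (median log2 fold change -1.28), where 38.6% of all genes tested fell and 37.3% rose. With melatonin at 40 °C 22 were higher and 2 lower (median 0.80), where 32.9% of all genes tested were higher and 26.2% lower. From 35 °C to 40 °C, both with melatonin, 20 were lower and 6 higher (median -0.42). In that step 27.5% of all genes tested were lower and 27.3% higher. Oxygen-evolving enhancer protein 1 (MSTRG.14408) averaged 1225 ± 11.5 FPKM at 40 °C and 1941 ± 9.23 FPKM at 25 °C, and plastocyanin (MSTRG.10096), which carries electrons to photosystem I, 820 ± 12.4 FPKM at 40 °C and 2122 ± 41.6 FPKM at 25 °C. At 35 °C, 15 of the 26 were lower and 2 higher with melatonin than without, where 12.3% of all genes tested were lower and 9.7% higher.

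GLK transcription factors are known in Arabidopsis as activators of antenna and chlorophyll synthesis genes. With melatonin MSTRG.6882 averaged 93.3 ± 6.02 FPKM at 35 °C and 77.2 ± 2.31 FPKM at 40 °C. Without melatonin it averaged 93.8 ± 3.26 FPKM at 25 °C, 118 ± 5.05 FPKM at 35 °C and 11.1 ± 0.942 FPKM at 40 °C. A second gene with this description (MSTRG.11015) averaged 13.6 ± 0.600 FPKM at 40 °C with melatonin and 11.6 ± 0.573 FPKM without, a log2 fold change of 0.03 ± 0.06 that did not pass (adjusted p = 0.72 in edgeR). At 25 °C it averaged 32.2 ± 1.41 FPKM.

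Among genes for proteins that guide antenna proteins to the thylakoid membrane, the chloroplast signal recognition particle subunit of 43 kDa (MSTRG.19959), a chaperone specific to antenna proteins, averaged 27.4 ± 0.975 FPKM at 40 °C and 67.2 ± 0.712 FPKM at 25 °C. The locus with the 54 kDa subunit (MSTRG.7318), merged with an undescribed gene, averaged 64.3 ± 1.5 FPKM at 40 °C and 37.1 ± 0.254 FPKM at 25 °C. Of these 5 genes, 4 fell and 1 rose at 40 °C against 25 °C, where 38.6% of all genes tested fell and 37.3% rose. All 5 were lower with melatonin at 35 °C, where 12.3% of all genes tested were lower.

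Relatives of the antenna proteins include early light-induced and one-helix proteins, which are known to accumulate under light stress. Of 20 listed, 15 passed the count filter, and 6 of them fell and 1 rose at 40 °C against 25 °C (median -0.63), where 38.6% of all genes tested fell and 37.3% rose, so the share that fell was near that of all genes. With melatonin at 40 °C 3 were higher and 4 lower, where 32.9% of all genes tested were higher and 26.2% lower. The gene with the highest mean over all 15 libraries, a light-harvesting-like protein 3 gene (MSTRG.12644), averaged 125 ± 4.55 FPKM with melatonin at 40 °C and 65.7 ± 2.89 FPKM without.

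Of 29 genes of chlorophyll synthesis, 17 rose and 5 fell at 35 °C against 25 °C, where 25.5% of all genes tested rose and 23.6% fell. At 40 °C against 25 °C 14 fell and 10 rose, where 38.6% of all genes tested fell and 37.3% rose. Protochlorophyllide reductase (MSTRG.6417), the light-dependent step of the pathway, averaged 76.7 ± 1.54 FPKM at 40 °C and 242 ± 10.1 FPKM at 25 °C. With melatonin at 40 °C it averaged 287 ± 3.77 FPKM, against 76.7 ± 1.54 FPKM without. Of the 29 genes, 15 were higher and 9 lower with melatonin at 40 °C, where 32.9% of all genes tested were higher and 26.2% lower. Geranylgeranyl diphosphate reductase (MSTRG.21122), which makes the chlorophyll tail, averaged 227 ± 17.95 FPKM at 40 °C and 264 ± 5.98 FPKM at 25 °C, a difference that did not pass (adjusted p = 0.15 in edgeR). Its log2 fold change for melatonin at 40 °C was -0.07 ± 0.08 and did not pass either (adjusted p = 0.51 in edgeR). At 35 °C 18 of the 29 were lower with melatonin and 0 higher, where 12.3% of all genes tested were lower and 9.7% higher.

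Among 9 genes of chlorophyll breakdown, 4 fell and 3 rose at 40 °C against 25 °C, both near the shares of all genes tested (38.6% and 37.3%). Their median log2 fold change was -1.24, against -0.01 over all genes. With melatonin at 40 °C 7 were higher and 2 lower, where 32.9% of all genes tested were higher and 26.2% lower. Pheophorbide a oxygenase (MSTRG.22302), which opens the chlorophyll ring, rose to 87.4 ± 3.15 FPKM at 40 °C, against 24.6 ± 0.591 FPKM at 25 °C. It was lower with melatonin at 40 °C, with 56.2 ± 4.88 FPKM with melatonin and 87.4 ± 3.15 FPKM without. Pheophytinase (MSTRG.1047), which removes the tail, averaged 112 ± 0.224 FPKM at 40 °C with melatonin and 63.2 ± 2.81 FPKM without. A Rubisco small subunit gene (MSTRG.20588), part of the carbon-fixing enzyme, averaged 1408 ± 28.1 FPKM at 40 °C and 2137 ± 28.1 FPKM at 25 °C, and the second (MSTRG.17466) 1.98 ± 0.184 FPKM at 40 °C and 24.2 ± 7.17 FPKM at 25 °C.

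**Figure D4:**
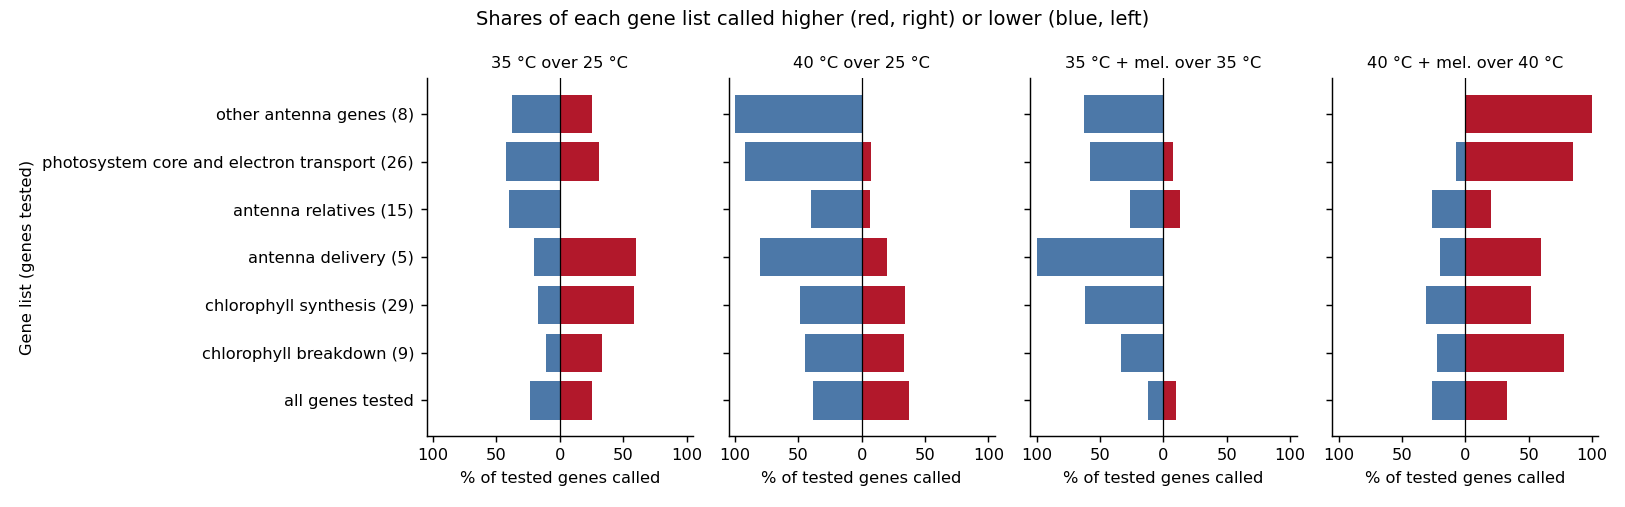
Share of the tested genes of each list (horizontal axis, percent, number of genes in brackets) called higher (red, to the right) or lower (blue, to the left) in 4 comparisons by edgeR, with all genes tested at the bottom. At 40 °C over 25 °C all 8 other antenna genes and 24 of 26 photosystem genes lie to the left, and for melatonin at 40 °C 8 and 22 lie to the right.

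Markers of leaf cell types also differed between groups. Of all genes tested, 38.6% fell and 37.3% rose at 40 °C against 25 °C. Summed over 9 mesophyll markers (Rubisco small subunit, carbonic anhydrase, plastocyanin), the level was 5119 to 6191 FPKM at 40 °C with melatonin, 2719 to 2808 FPKM at 40 °C without it and 5858 to 5966 FPKM at 25 °C. At 40 °C against 25 °C 7 of the 8 tested fell and 1 rose. The plastocyanin and Rubisco small subunit genes of this list are those described above, so the sum is not a separate measure. Of a mean sum of 5927 FPKM at 25 °C, MSTRG.20588 held 2137 FPKM and MSTRG.10096 2122 FPKM. At 40 °C without melatonin they held 1408 and 820 FPKM of 2752 FPKM. The 48 vascular and phloem markers summed to 136 to 143 FPKM at 40 °C and 347 to 351 FPKM at 25 °C (20 of 37 tested fell, 7 rose), and the 20 epidermal and guard cell markers to 288 to 352 FPKM at 40 °C and 528 to 555 FPKM at 25 °C (12 of 19 tested fell, 5 rose). With melatonin at 40 °C the vascular list stood at 126 to 130 FPKM, and against 40 °C without it 16 of its genes were higher and 9 lower. The epidermal list stood at 112 to 118 FPKM there, with 5 higher and 8 lower. In this melatonin comparison 32.9% of all genes tested were higher and 26.2% lower.

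Markers also differed in the melatonin comparison at 35 °C, in which LHCA3 and 5 other antenna genes fell. There, 9.7% of all genes tested were higher with melatonin and 12.3% lower. Vascular markers summed to 206 to 210 FPKM with melatonin and 497 to 505 FPKM without (12 of 37 higher, 9 lower), and epidermal markers to 576 to 587 FPKM with melatonin and 405 to 430 FPKM without (9 of 19 higher, 2 lower). The vascular sum was lower with melatonin, yet the list's median log2 fold change was 0.24. That sum therefore does not represent most of the vascular genes. Mesophyll markers summed to 6193 to 6819 FPKM with melatonin and 6453 to 7304 FPKM without (0 of 8 higher, 3 lower), and these groups overlapped.

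The 15 genes described with pollen or anther words summed to 91.1 to 97.2 FPKM at 40 °C with melatonin, 219 to 233 FPKM at 40 °C without it and 31.6 to 35.1 FPKM at 25 °C, with 6 higher and 5 lower at 40 °C than at 25 °C, near the shares of all genes. The 3 root markers summed to 21.0 to 22.7 FPKM at 40 °C with melatonin, 35.3 to 38.3 FPKM at 40 °C without it and 19.2 to 20.4 FPKM at 25 °C. Among them, MSTRG.22251 is a locus merged from a root cap gene and a pyridoxal 5'-phosphate synthase gene, so the sum is not of root genes alone. No gene of these lists was at 0 in all 15 libraries, though 12 of the 48 vascular markers had 0 counts in all 3 libraries of 40 °C and 9 in those of 25 °C. Transcripts of the mitochondrial genome took 0.0566 to 0.0690% of counts in 40 °C libraries given melatonin, 0.202 to 0.222% in 40 °C libraries without it, and 0.0204 to 0.0266% in 25 °C libraries. The part of these shifts in the antenna values was not tested.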

How the data were processed

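The authors sequenced leaf polyA RNA in stranded (dUTP) libraries, per the labels' protocols. The tools named in the submitters' processing notes, without roles, are StringTie 1.3.4d, HISAT2 2.0.4 and cutadapt 1.9. Whether counting used strand is not stated. The authors deposited, per the file headers, raw counts and FPKM for each gene in each library. Another 6 columns of values fit none of the labelled samples and stayed out.

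The members and gene lists were chosen with earlier results of these data known. Counts were fitted with edgeR 4.0.16 in R 4.3.3 (TMM scaling, filterByExpr, quasi-likelihood test, 5 group means, 10 residual degrees of freedom) over all 26183 genes passing the filter. The SE is the absolute fold change over the square root of F. The fit was also run on simulated counts in which few genes changed, unlike in these data, so that run does not test the scaling. Genes named are the antenna list, 2 of highest mean FPKM per other list, and the 5 nearest patterns per member. Alternatives were RLE scaling, no filter, DESeq2 1.42.0, limma 3.58.1 on log2(FPKM + 1) or + 0.1, a replicate block, the compared groups alone, and leaving out each library.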

Additional observations from a re-analysis of the deposited data

Results flagged for a closer look

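The melatonin effect at 40 °C differed from that at 35 °C by the interaction term in edgeR for 7 antenna genes outside the 3 followed. The log2 differences, 40 °C minus 35 °C, were 3.15 for LHCA1 (MSTRG.16494), 2.24 for LHCB2 (MSTRG.6604), 2.12 and 1.68 for the LHCA2 genes (MSTRG.8224 and MSTRG.20722), 2.11 for CP29 (MSTRG.9800), 1.96 for CP24 (MSTRG.19542) and 1.26 for LHCA5 (MSTRG.10375). For LHCA3 (MSTRG.6506) and LHCA4 (MSTRG.21116) every library with melatonin lay above those without at 40 °C and below them at 35 °C in FPKM. Their log2 differences were 2.94 and 2.54. For these 2 genes the difference was not tested, because they were chosen with results of these data known.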

How the results depend on the processing

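The log2 fold changes of LHCA3, LHCA4 and LHCB3 kept their direction in every comparison under each alternative run. In every run, melatonin at 35 °C was compared with libraries that chose LHCA3 and LHCB3. A kept call there is therefore not independent of that choice. In the comparisons in which LHCA3 and LHCB3 were tested, LHCA3 kept its calls, while LHCB3, not called in either, was called under some settings. Its change at 35 °C with melatonin was 0.17 and was called in limma without a filter. Its change at 40 °C against 35 °C with melatonin was -0.09 and was called in the fit on the compared groups alone. It was also called without the third 40 °C library given no melatonin, which lies outside this comparison. With single libraries left out, the values ran between -0.103 and -0.051. In that comparison LHCA4 gave -0.078 with RLE scaling, -0.077 with DESeq2, -0.081 on the compared groups alone, -0.087 without a count filter and -0.12 in each limma fit (-0.092 to -0.042 with 1 library left out). Of the 8 other antenna genes, 1 rose at 35 °C against 25 °C with RLE scaling, DESeq2 or the compared groups alone (1 to 2 with libraries left out). With melatonin at 35 °C, 3 fell in limma on log2(FPKM + 1), 2 with a pseudocount of 0.1 and 2 in limma without a filter (3 to 5 with libraries left out). Over all other pathway lists, 30 genes fell there with the pseudocount of 0.1, against 47 in edgeR. The cause was not tested. Of the 5 genes most like LHCB3, 3 stayed among its nearest 5 on log2 CPM. On FPKM as deposited the share of called genes that were higher with melatonin was 68.4% at 35 °C and 66.7% at 40 °C, against 44.1% and 55.6% in edgeR, and the median log2 change over all genes for melatonin at 40 °C was 0.23, against 0.10 in edgeR. With the replicate block, LHCA3 gave -0.49 with melatonin at 35 °C, and 7 of the 8 other antenna genes were higher with melatonin at 40 °C. Same-numbered libraries of different groups did not deviate together (correlations of -0.093 to 0.069, against -0.129 to 0.188 for differently numbered ones). No pairing by number was seen, but this check cannot show that the libraries are unpaired. Counting error is small for these genes except LHCB3 at 40 °C and CP26.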
